A study of Mus musculus with 12 samples.

Results

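Glutathione peroxidases and their partner antioxidant enzymes were followed at the transcript level in whole mouse corneas. The set holds 10 genes of the 18194 that the array names: the glutathione peroxidases Gpx1, Gpx2, Gpx3 and Gpx4, the glutathione-synthesis subunits Gclc and Gclm, the thiol-repair enzymes Srxn1 and Txnrd1, and the inducible enzymes Hmox1 and Nqo1. The set was listed by symbol, and 18 probe sets carry one of these symbols alone. The probe set with the highest mean intensity over the 12 arrays stood for each gene. All animals were on the C57BL/6J strain. Intact corneas came from Dscr-1-/- and ApoE-/- double null mutants (double KO), from Dscr-1-/- mice (Dscr1KO), from ApoE-/- mice (ApoeKO) and from wild-type mice (WT), with 2 arrays each that the labels call biological replicates. Sutured corneas were 1 array each: a Dscr-1 Tg cornea at day 7 after suturing, a WT cornea at day 7, a Dscr1KO cornea at day 5 and a WT cornea at day 5. Rcan1, a regulator of calcineurin, is the current symbol for Dscr1, and the series asks what its loss does to the cornea. The sources used here give neither the promoter that drives the transgene, nor the animals' sex and age, nor the number of corneas behind an array.

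Glutathione peroxidases use the tripeptide glutathione to reduce hydrogen peroxide and lipid peroxides, and several of them carry selenocysteine in the active site. Glutathione itself is made by glutamate-cysteine ligase, whose catalytic subunit is Gclc and whose modifier subunit is Gclm. Many genes of this defence are targets of the transcription factor Nrf2 (gene Nfe2l2), which Keap1 holds low in resting cells and Bach1 opposes at shared DNA sites. The cornea meets light and oxygen directly and relies on such enzymes to stay clear.

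Values were the authors' probe-set intensities, on a linear scale with each array scaled to a trimmed mean of 100. Differences were computed on log2(intensity + 3.6), which understates the fold of dim probe sets, and were tested with limma, with Benjamini-Hochberg adjustment over all 12706 genes above a filter on low intensity. All 10 members passed that filter. Gpx2 and Gpx3 reached the filter level on 10 of the 12 arrays, and the other members on all 12. The authors' files used here hold no detection call, so a probe set's low value may be background. Levels of different probe sets were not compared with each other.

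Several arrays carried labels or contents that bear on every result below. The array titled Dscr1KO replicate 2 has a second label that gives the Apoe mutant, and its genotype field gives Dscr-1-/-. Rcan1 read 380 and 332 on the double KO arrays, 477.5 and 336 on the Dscr1KO arrays, 668 and 581 on the ApoeKO arrays, and 630.4 and 649.5 on the WT arrays, so the array with the conflicting label lies with the arrays without Dscr1. In sutured corneas the same probe set read 548 in Tg and 579.7 in WT at day 7, and 479 in Dscr1KO and 664 in WT at day 5, so it does not show the Tg label. A dimmer Rcan1 probe set read 66.7 in Tg and 53.4 in WT at day 7. Whether these probes match the deleted part of the gene is not given. Apoe was 317 on the array with the conflicting label and 1272 on the other Dscr1KO array. Apoe read 849 on ApoeKO replicate 1, inside the WT range of 776.5 to 1030.5, and 7.5 on ApoeKO replicate 2. Both arrays were kept as labelled, and results that change without them are named. Xist, an RNA of the inactive X chromosome, was between 4104 and 5385 on both ApoeKO arrays, both Dscr1KO arrays and double KO replicate 1, and at or below 19.6 on the other 7. Sex therefore cannot be told apart from genotype in intact Dscr1KO against WT or in ApoeKO against WT, nor from suturing in Dscr1KO, where the sutured array read 6.0 and the intact pair was high. The WT arrays were low both sutured and intact. Fewer cells of a type and less RNA per cell cannot be told apart in these bulk samples. The corneal epithelium markers, 8 in number, summed to between 33393 and 49933 in intact corneas without Dscr1 and to between 31886 and 45561 in intact corneas with Dscr1, and the tissue label is met on all arrays.

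Markers of other cell types differed widely between the intact groups. The 8 keratinised epithelium markers with a probe set, of 9 listed, summed to between 15456 and 27036 in intact corneas without Dscr1, against 261.9 to 348 in intact corneas with Dscr1. Of these markers Ivl went the other way, at 44.1 to 70.0 without Dscr1 and 77.4 to 130.8 with Dscr1. Neutrophil markers summed to between 8860 and 19816 without Dscr1 and to between 132 and 294 with Dscr1. Most of that sum came from S100a8 and S100a9, which read 9010.6 and 10318.8 on Dscr1KO replicate 2, the array with the sum of 19816. Macrophage markers summed to between 3417 and 9541 without Dscr1 and to between 460.7 and 1824 with Dscr1. Blood endothelium markers summed to between 1036 and 1763 without Dscr1 and to between 101 and 127 with Dscr1. Corneal endothelium markers ran the other way, between 1008 and 7097 without Dscr1 and between 9001 and 11620.0 with Dscr1. Lens markers summed to between 5569 and 7638 in intact WT and to 5635 in sutured WT at day 7, and to 863 or less on the other 9 arrays. Conjunctiva and goblet cell markers summed to between 18039 and 24088 on intact arrays without Dscr1 and to between 6408 and 8938 on intact arrays with Dscr1. Of the 7 conjunctiva markers, 5 rose and 1, Muc4, fell in the average of Dscr1 loss, where 31.7% of all tested genes were called. Pigment cell markers summed to between 234 and 493 on intact arrays without Dscr1 and to between 721 and 922.5 on intact arrays with Dscr1. Photoreceptor markers summed to 3259.8 on double KO replicate 1 and to 262 or less on the other 11 arrays. The part of these cell types in the results on the antioxidant enzymes was not tested.

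**Figure D1:**
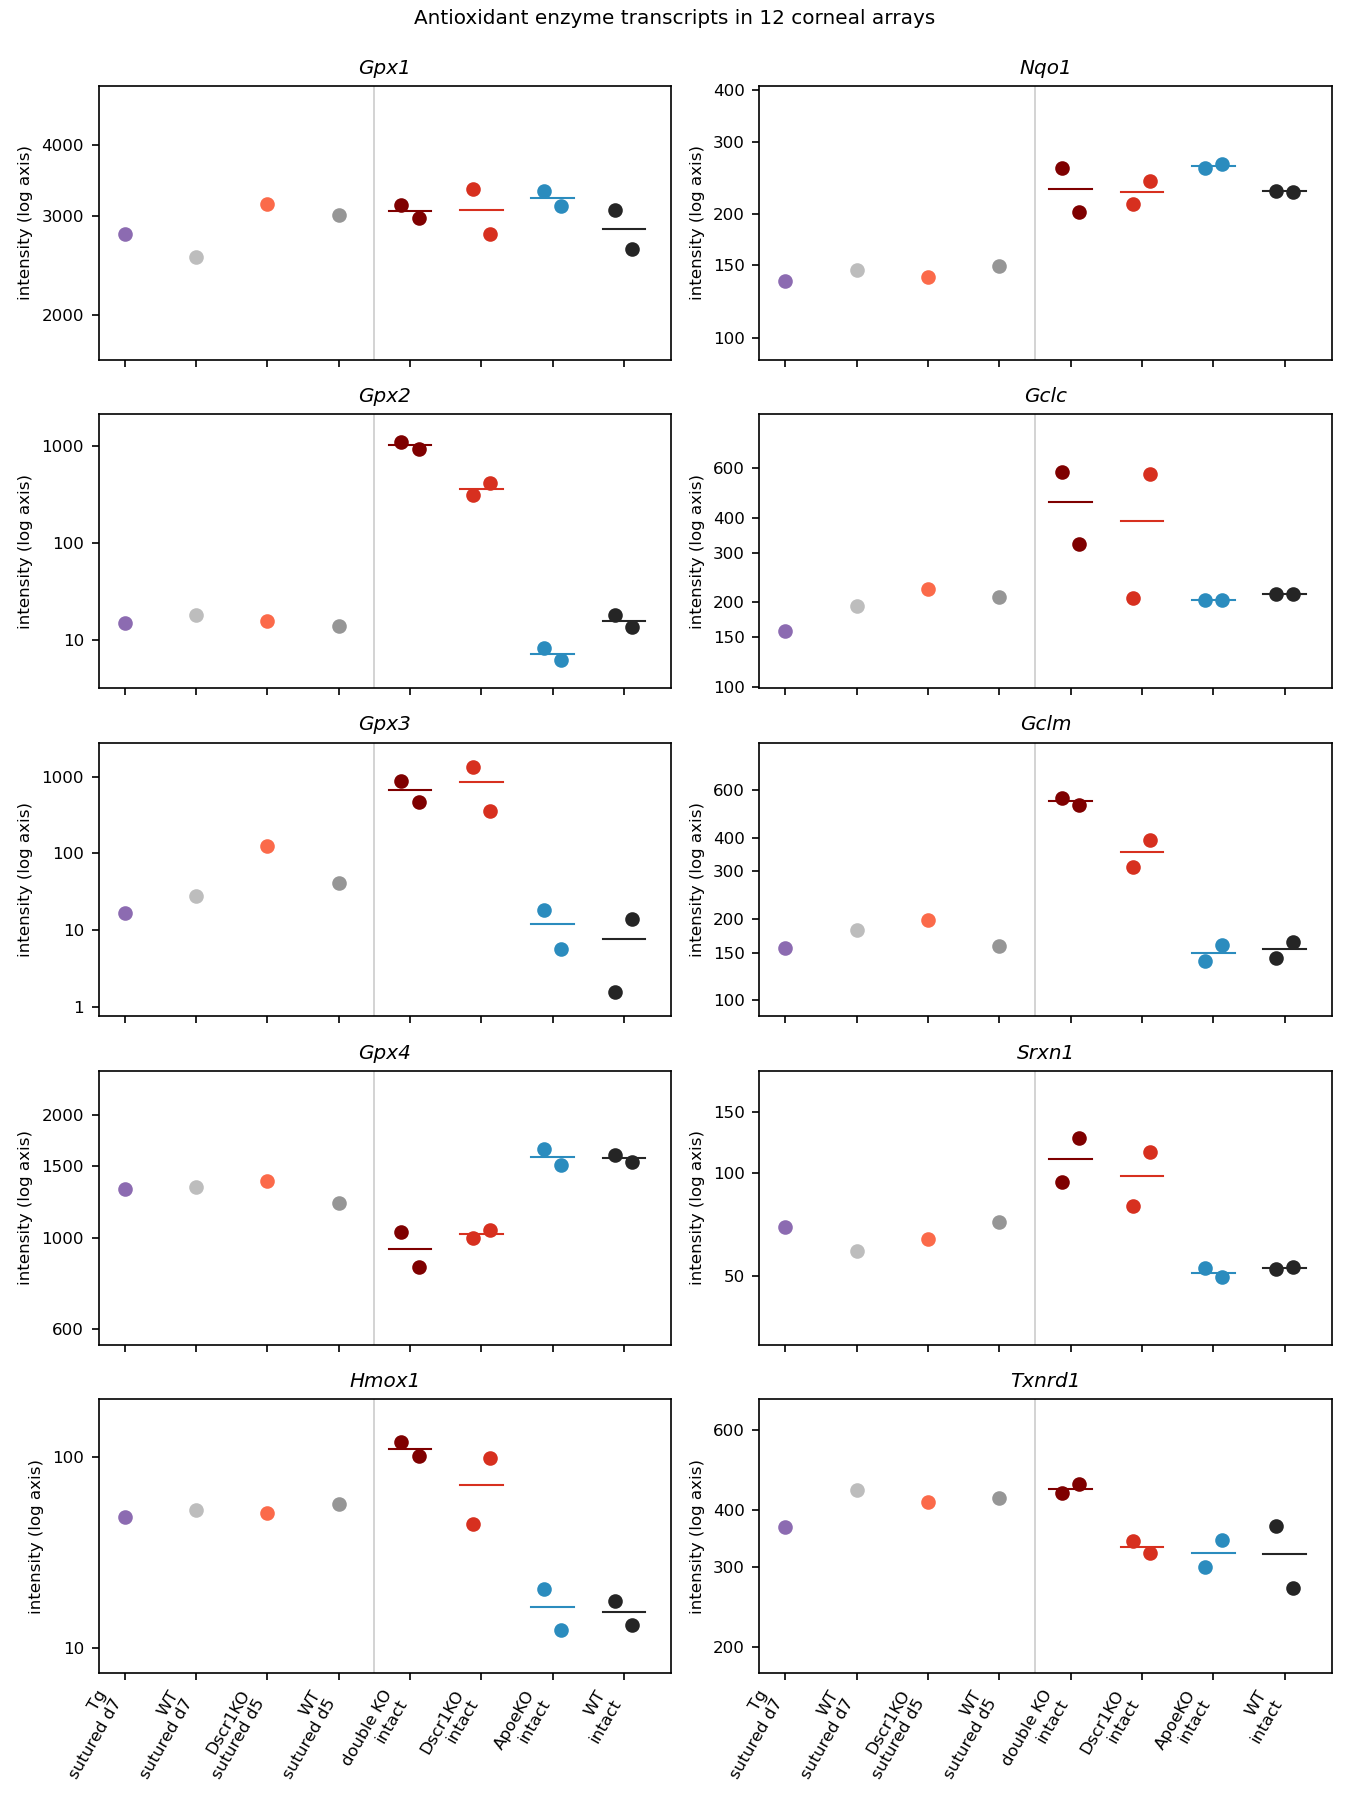
Intensity of each of the 10 antioxidant enzyme transcripts on each of the 12 arrays, on a logarithmic axis that differs between panels; each point is 1 array, short lines are the means of the intact groups with 2 arrays, and sutured arrays stand left of the grey line. Gpx2, Gpx3, Gclm, Hmox1 and Srxn1 were higher, and Gpx4 lower, on all 4 intact arrays without Dscr1 than on the 4 intact arrays with Dscr1, whereas Gpx2 on the sutured Dscr1KO array lay at the WT level. The share of all tested genes that separate these arrays as fully was not counted. In the average of Dscr1 loss 31.7% of all tested genes were called.

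Among the glutathione peroxidases, Gpx2 and Gpx3 rose in intact corneas that lacked Dscr1, Gpx4 fell, and Gpx1 did not pass the test. Averaged over both Apoe genotypes, loss of Dscr1 changed Gpx2 by a log2 difference of 5.40 ± 0.17 (SE, adjusted p = 2.77e-06), Gpx3 by 5.83 ± 0.55 (adjusted p = 0.000357) and Gpx4 by -0.68 ± 0.11 (adjusted p = 0.00297). These average differences set 4 arrays without Dscr1 against 4 arrays with it. Full separation of these arrays is given below for several genes, and the share of all tested genes that separate as fully was not counted. Gpx4 was thus 1.61-fold lower on the scale used. For Gpx2 and Gpx3, whose low group lay near the added 3.6, the size depends on that value: with 1.2 added the averages were 5.67 and 6.25, and with 10.2 added they were 4.86 and 5.15.

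Gpx2, the glutathione peroxidase typical of epithelia and best known from the gut, read 1102 and 945 on the double KO arrays, 316 and 415 on the Dscr1KO arrays, 8.3 and 6.3 on the ApoeKO arrays, and 18.3 and 13.7 on the WT arrays. The 4 arrays without Dscr1 lay far above the 4 with it, and the double KO pair lay above the Dscr1KO pair. Gpx2 averaged 695 ± 387 in intact corneas without Dscr1 and 11.65 ± 5.42 in intact corneas with Dscr1 (SD, n = 4 each). Pairwise, the log2 difference was 4.23 ± 0.24 in Dscr1KO against WT (adjusted p = 0.000123), 5.72 ± 0.24 in the double KO against WT (adjusted p = 2.38e-05) and 6.56 ± 0.24 in the double KO against ApoeKO (adjusted p = 1.82e-05). Gpx2 was at 945 on the double KO array with low Xist and at 8.3 or below on the ApoeKO arrays with high Xist. Sex and genotype cannot be told apart in Dscr1KO against WT. Of the 8 keratinised epithelium markers tested, 7 rose like Gpx2 in the average of Dscr1 loss and 1, Ivl, fell. In that average 31.7% of all tested genes were called.

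Gpx3, the secreted glutathione peroxidase of blood plasma that is made largely in the kidney, read 868 and 464 on the double KO arrays, 1316.5 and 360.5 on the Dscr1KO arrays, 18.3 and 5.8 on the ApoeKO arrays, and 1.6 and 14.0 on the WT arrays. The groups with and without Dscr1 did not overlap, but the replicates of a group spread more than for any other member, with a pooled SD of 1.05 on the log2 scale against 0.22 for Gpx2. The log2 difference was 6.18 ± 0.77 in Dscr1KO against WT (adjusted p = 0.00354), 6.06 ± 0.77 in the double KO against WT (adjusted p = 0.00225) and 5.48 ± 0.77 in the double KO against ApoeKO (adjusted p = 0.00416). With WT at 1.6 and 14.0, close to or below the added 3.6, the size of the Dscr1KO difference moved to 6.73 with 1.2 added and to 5.38 with 10.2 added, and it was called in both.

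Gpx4, which reduces phospholipid hydroperoxides in membranes and guards cells against ferroptosis, read 1035 and 850.0 on the double KO arrays, 999 and 1045 on the Dscr1KO arrays, 1656 and 1509.7 on the ApoeKO arrays, and 1601 and 1536 on the WT arrays. The highest array without Dscr1 lay below the lowest array with it. The mean was 982 ± 90.4 in intact corneas without Dscr1 and 1576 ± 65.7 in intact corneas with Dscr1 (SD, n = 4 each). Gpx4 fell by 0.62 ± 0.15 on the log2 scale in Dscr1KO against WT (adjusted p = 0.0392), by 0.74 ± 0.15 in the double KO against WT (adjusted p = 0.0135) and by 0.75 ± 0.15 in the double KO against ApoeKO (adjusted p = 0.0137). The first of these calls was lost without the array that carries the conflicting label (adjusted p = 0.0582), without WT replicate 1 or 2 (0.211 and 0.202), and without ApoeKO replicate 1 or 2 (0.0912 and 0.0914). The double KO call against WT was lost without WT replicate 1 or 2 (0.0993 and 0.0916) or double KO replicate 2 (0.0518). The call against ApoeKO was lost without ApoeKO replicate 1 or 2 (0.117 and 0.0859) or double KO replicate 2 (0.0504). A second Gpx4 probe set gave -0.81 for the average of Dscr1 loss (adjusted p = 0.0115, among all probe sets with 1 symbol), -1.09 in Dscr1KO against WT (0.0356) and -0.74 in the double KO against WT, where it did not pass (0.0889).

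Gpx1, the abundant cytosolic peroxidase of hydrogen peroxide, read 3137 and 2974.5 on the double KO arrays, 3351 and 2781.5 on the Dscr1KO arrays, 3323 and 3124 on the ApoeKO arrays, and 3070.4 and 2615 on the WT arrays. The 4 groups overlapped. The average difference for loss of Dscr1 was 0.02 ± 0.11 on the log2 scale (adjusted p = 0.934), with a 95% interval of -0.25 to 0.28. A change of Gpx1 as large as the fall of Gpx4 lay outside that interval.

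Promoters are shown for 5 of the 6 members that passed in the average of Dscr1 loss, since these genes moved together, 4 of them up and Gpx4 down. The windows are those of RefSeq on GRCm38.p6 and run from 250 bases before to 50 bases after an annotated start, and 8 members have 13 such windows. Both strands were searched for TGACNNNGC, the core of the antioxidant response element that Nrf2 binds with small Maf proteins, and for TGAGTCA, the site of AP-1 factors that Bach proteins also bind with small Maf proteins. Matches are in capitals, and a match on the opposite strand reads as its reverse complement.
Gpx2 promoter, chr12:76795505-76795804, minus strand: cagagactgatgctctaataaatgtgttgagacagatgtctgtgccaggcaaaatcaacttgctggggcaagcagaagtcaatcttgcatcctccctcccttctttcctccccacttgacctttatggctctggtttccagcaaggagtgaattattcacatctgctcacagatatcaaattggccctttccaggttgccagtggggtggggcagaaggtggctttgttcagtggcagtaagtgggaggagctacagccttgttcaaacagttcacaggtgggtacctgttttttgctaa
Gpx3 promoter, chr11:54902604-54902903, plus strand: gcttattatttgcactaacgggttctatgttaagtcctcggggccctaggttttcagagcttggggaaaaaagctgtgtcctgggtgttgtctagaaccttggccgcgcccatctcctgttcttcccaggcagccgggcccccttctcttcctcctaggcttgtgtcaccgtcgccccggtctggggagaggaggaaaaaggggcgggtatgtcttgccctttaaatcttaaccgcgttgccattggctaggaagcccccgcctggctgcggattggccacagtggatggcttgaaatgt
Gpx4 promoter, chr10:80053315-80053614, plus strand, the second of 4 windows: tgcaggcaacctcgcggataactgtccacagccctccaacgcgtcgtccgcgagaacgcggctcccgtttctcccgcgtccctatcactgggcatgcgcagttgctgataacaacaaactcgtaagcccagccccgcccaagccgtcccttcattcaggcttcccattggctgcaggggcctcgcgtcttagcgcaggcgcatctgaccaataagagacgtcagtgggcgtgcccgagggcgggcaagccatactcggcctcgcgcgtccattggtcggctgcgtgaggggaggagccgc
Gclm promoter, chr3:122245307-122245606, plus strand: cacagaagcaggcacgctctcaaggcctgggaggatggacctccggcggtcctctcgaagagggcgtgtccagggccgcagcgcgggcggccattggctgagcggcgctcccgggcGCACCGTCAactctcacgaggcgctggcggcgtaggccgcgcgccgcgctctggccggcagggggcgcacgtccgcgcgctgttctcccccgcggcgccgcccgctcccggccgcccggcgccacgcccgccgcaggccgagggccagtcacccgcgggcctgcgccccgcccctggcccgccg
Srxn1 promoter, chr2:152105274-152105573, plus strand: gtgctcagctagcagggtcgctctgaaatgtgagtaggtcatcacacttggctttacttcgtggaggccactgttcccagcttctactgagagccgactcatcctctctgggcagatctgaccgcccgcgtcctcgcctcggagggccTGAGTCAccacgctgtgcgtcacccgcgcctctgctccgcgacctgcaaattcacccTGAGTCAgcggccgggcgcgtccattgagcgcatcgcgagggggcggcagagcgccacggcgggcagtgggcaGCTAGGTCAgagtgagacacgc
The Gclm window holds 1 match to TGACNNNGC on the opposite strand, from -134 to -126 relative to the start. The Srxn1 window holds 1 such match on the opposite strand, from 29 to 37, and 2 copies of TGAGTCA at -102 to -96 and -45 to -39. The Gpx2 and Gpx3 windows, whose genes had the largest rises among the members, hold neither run of letters, and neither do the 4 Gpx4 windows. Among the members that did not pass, 1 window of Txnrd1 holds a TGACNNNGC match on the opposite strand, from -92 to -84. Of all 32851 promoter windows in the table, 12.4% hold TGACNNNGC and 5.20% hold TGAGTCA. These matches describe letters in the windows and were not tested as sites.

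The subunits of glutamate-cysteine ligase both read higher on most arrays without Dscr1, and Gclm passed the test while Gclc did not. Gclm, the modifier subunit, read 560.4 and 530.4 on the double KO arrays, 312 and 394 on the Dscr1KO arrays, 139.9 and 159.5 on the ApoeKO arrays, and 143 and 165 on the WT arrays. All arrays without Dscr1 lay above all arrays with it, and the double KO pair lay above the Dscr1KO pair. The log2 difference averaged over both Apoe genotypes was 1.51 ± 0.13 (adjusted p = 0.000236), or 2.84-fold. It was 1.17 ± 0.18 in Dscr1KO against WT (adjusted p = 0.0076), 1.80 ± 0.18 in the double KO against WT (adjusted p = 0.000936) and 1.84 ± 0.18 in the double KO against ApoeKO (adjusted p = 0.00107). The Dscr1KO call was lost without WT replicate 1 (adjusted p = 0.0811) or WT replicate 2 (0.0606). A dimmer Gclm probe set gave 0.66 ± 0.20 for the average (adjusted p = 0.0593) and 0.10 in Dscr1KO against WT (adjusted p = 0.894), so its probe sets disagree for Dscr1KO.

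Gclc, the catalytic subunit, read 584 and 323 on the double KO arrays, 206 and 573 on the Dscr1KO arrays, 204.2 and 204.1 on the ApoeKO arrays, and 213 and 214 on the WT arrays. Of the 4 arrays without Dscr1, 3 lay above every array with it, and Dscr1KO replicate 1 lay at their level. The average difference was 0.88 ± 0.32 on the log2 scale (adjusted p = 0.0698), with a 95% interval of 0.14 to 1.61. It was 1.24 with adjusted p = 0.00285 when Dscr1KO replicate 1 was left out, so that 1 array decided the call.

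The thiol-repair enzymes had smaller differences, and one of the pair passed. Srxn1, sulfiredoxin, which restores over-oxidised peroxiredoxins, read 93.9 and 126 on the double KO arrays, 80.1 and 115 on the Dscr1KO arrays, 52.6 and 49.6 on the ApoeKO arrays, and 52.5 and 53.2 on the WT arrays. Every array without Dscr1 lay above every array with it. Srxn1 rose by 0.93 ± 0.18 on the log2 scale in the average (adjusted p = 0.00637), by 0.99 ± 0.25 in the double KO against WT (adjusted p = 0.028) and by 1.04 ± 0.25 in the double KO against ApoeKO (adjusted p = 0.025). The difference of 0.82 ± 0.25 in Dscr1KO against WT did not pass (adjusted p = 0.0718). Both double KO calls were lost without any 1 of several arrays: the call against WT without either WT array (0.142 and 0.153), either ApoeKO array (0.0599 and 0.0601) or double KO replicate 2 (0.102), and the call against ApoeKO without either WT array (0.0587 and 0.0589), either ApoeKO array (0.117 and 0.151) or double KO replicate 2 (0.0895). The 3 dimmer Srxn1 probe sets gave 0.60, 0.21 and 0.03 for the average, none of them past the threshold (adjusted p = 0.112, 0.677 and 0.970).

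Txnrd1, the cytosolic thioredoxin reductase, read 436 and 456 on the double KO arrays, 342.5 and 322 on the Dscr1KO arrays, 299 and 343 on the ApoeKO arrays, and 369 and 269 on the WT arrays. The double KO arrays were the highest of the intact ones, and the other groups overlapped. No comparison of Txnrd1 passed, with 0.27 ± 0.13 in the average (adjusted p = 0.153) and 0.49 ± 0.19 in the double KO against WT (adjusted p = 0.103).

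The inducible enzymes differed from each other. Hmox1, heme oxygenase 1, which breaks heme into biliverdin, iron and carbon monoxide and is abundant in macrophages, read 120.1 and 102 on the double KO arrays, 44.8 and 98.8 on the Dscr1KO arrays, 20.3 and 12.4 on the ApoeKO arrays, and 17.6 and 13.1 on the WT arrays. Dscr1KO replicate 1 was the lowest of the 4 arrays without Dscr1 and still lay above the highest with it. Hmox1 rose by 2.22 ± 0.28 on the log2 scale in the average (adjusted p = 0.00117), by 1.90 ± 0.40 in Dscr1KO against WT (adjusted p = 0.0222), by 2.60 ± 0.40 in the double KO against WT (adjusted p = 0.00433) and by 2.55 ± 0.40 in the double KO against ApoeKO (adjusted p = 0.00558). The Dscr1KO call was lost without the array with the conflicting label (1.36, adjusted p = 0.0668) or either WT array (0.100 and 0.168), and the call against ApoeKO was lost without ApoeKO replicate 2 (0.0554). Macrophage markers rose in 8 of 9 in the same average, with a median log2 difference of 2.95, where 31.7% of all tested genes were called. Their sum was 9541 and 3417 on Dscr1KO replicates 1 and 2, with Hmox1 at 44.8 and 98.8. Lyz2 held the largest part of the sum on Dscr1KO replicate 1, at 3942.3, and read 423.5 on replicate 2. On double KO replicates 1 and 2 the sum was 4877 and 8294.5, with Hmox1 at 120.1 and 102. The part of macrophages in the Hmox1 difference was not tested.

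Nqo1, which reduces quinones and is a widely used Nrf2 target, read 259 and 202 on the double KO arrays, 212 and 240.5 on the Dscr1KO arrays, 259 and 264.5 on the ApoeKO arrays, and 228 and 226 on the WT arrays. The groups with and without Dscr1 overlapped. The average difference was -0.10 ± 0.12 on the log2 scale (adjusted p = 0.575), with a 95% interval of -0.39 to 0.19. The interval leaves out a rise of the size seen for Gclm or Srxn1.

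**Figure D2:**
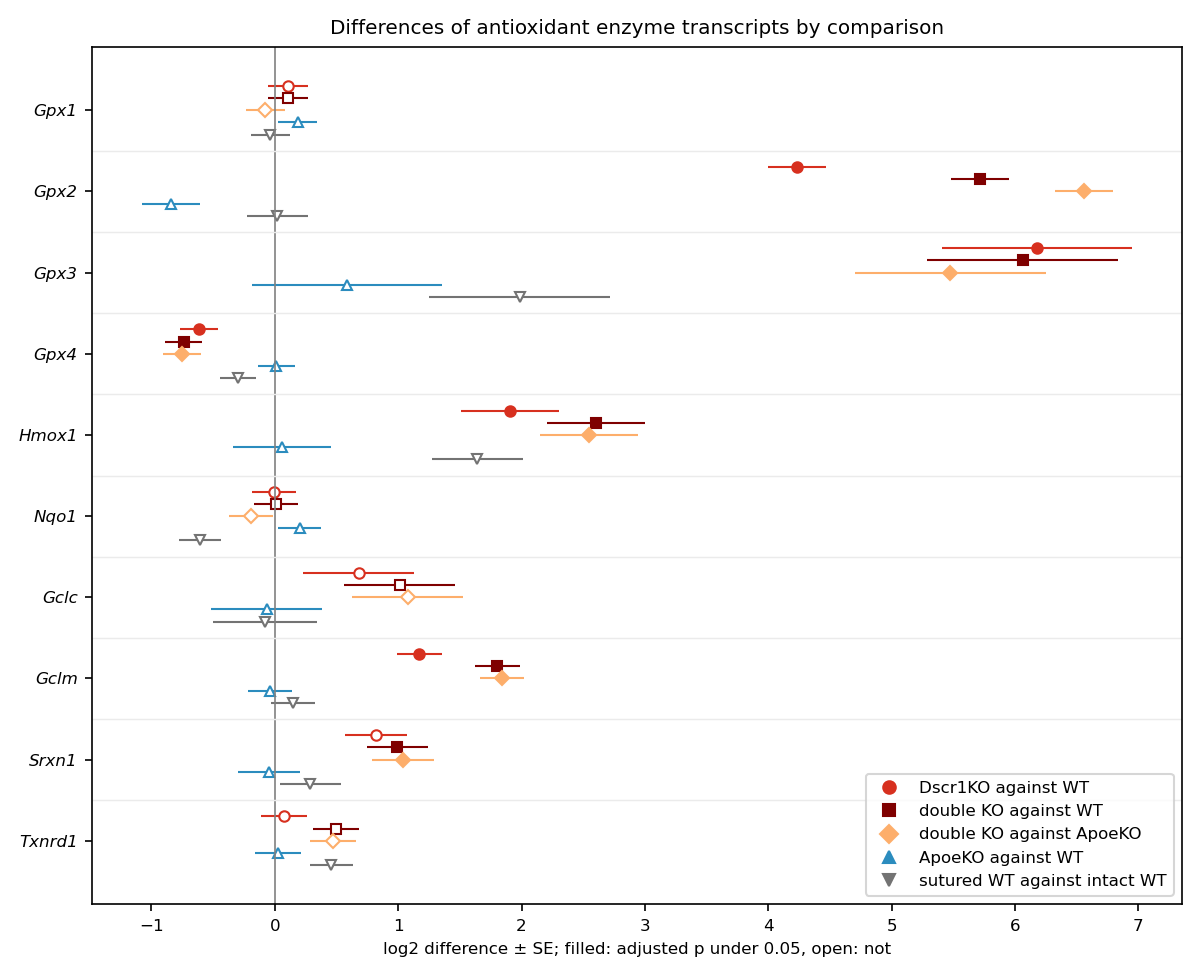
Log2 difference of each antioxidant enzyme transcript in 4 comparisons of intact groups and in sutured WT against intact WT; horizontal bars are the SE, filled symbols have an adjusted p under 0.05 and open symbols do not. Gpx2 and Gpx3 lie between 4.23 and 6.56 in the 3 comparisons that set corneas without Dscr1 against corneas with it, Gpx4 lies between -0.75 and -0.62 there, and no symbol of ApoeKO against WT or of sutured WT against intact WT is filled.

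Counted over the set, 6 of 10 members were called in the average of Dscr1 loss, 5 higher and 1 lower, where 31.7% of all tested genes were called. The members' median log2 difference was 0.90, beside -0.02 over all tested genes. In Dscr1KO against WT, 5 members were called, 4 higher and 1 lower, where 11.8% of all genes were called. In the double KO against WT, 6 members were called, 5 higher and 1 lower, where 20.1% of all genes were called. In the double KO against ApoeKO, 6 members were called, 5 higher and 1 lower, where 19.6% of all genes were called. These comparisons share arrays, and their counts are not independent of each other. In Dscr1KO against WT, Gpx2 and Gpx3 were the members still called without WT replicate 1 or without WT replicate 2, a count of 2, and 3 members were called without the array with the conflicting label. In the double KO against ApoeKO, 3 members were called without ApoeKO replicate 2, Gpx2, Gpx3 and Gclm.

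No member passed the test for loss of Apoe on its own. In ApoeKO against WT none of the 10 was called by limma, where 0.0236% of all genes were called. Of all 12706 tested genes, 477 had an unadjusted p under 0.05, and so did 1 member. That member was Gpx2, at 8.3 and 6.3 on the ApoeKO arrays and 18.3 and 13.7 on the WT arrays, with a log2 difference of -0.84 ± 0.24 (adjusted p = 0.761). In the double KO against Dscr1KO none was called by limma, where 0.0236% of all genes were called. An unadjusted p under 0.05 was reached by 1365 of all 12706 tested genes and by 2 members. These were Gpx2, with a log2 difference of 1.49 ± 0.24 (adjusted p = 0.189), and Gclm, with 0.63 ± 0.18 (adjusted p = 0.361). The interaction of Dscr1 loss and Apoe loss was called in no member by limma, where 0.00787% of all genes were called. There 962 of all 12706 tested genes had an unadjusted p under 0.05, and 2 members did. For Gpx2 the effect of Dscr1 loss was larger by 2.33 ± 0.33 on the log2 scale without Apoe than with it (adjusted p = 0.138), and for Gclm by 0.67 ± 0.26 (adjusted p = 0.628). Over the alternatives run, the Gpx2 interaction stayed between 2.05 and 2.66 and was called in none.

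Suturing was measured in WT as the arrays of day 7 and day 5 taken as 1 group of 2 against the intact WT pair. None of the 10 members was called by limma in sutured WT against intact WT, where 1.57% of all genes were called. Of all 12706 tested genes, 1862 had an unadjusted p under 0.05, and so did 4 members. Hmox1 read 53.2 at day 7 and 57.1 at day 5 in sutured WT, against 17.6 and 13.1 in intact WT. Its log2 difference was 1.64 ± 0.37 (adjusted p = 0.068), and it passed without Dscr1KO replicate 1 or 2 in the shared spread (adjusted p = 0.0177 and 0.0191). Nqo1 read 146 at day 7 and 149 at day 5 in sutured WT, against 228 and 226 in intact WT, a log2 difference of -0.61 ± 0.17 (adjusted p = 0.126). All 4 sutured arrays lay below all 8 intact arrays for Nqo1, with 137 in the cornea labelled Tg and 140.3 in the Dscr1KO cornea. How many of all tested genes separate sutured from intact arrays as fully was not counted. Gpx3 read 28.2 at day 7 and 41.5 at day 5 in sutured WT, against 1.6 and 14.0 in intact WT, a log2 difference of 1.98 ± 0.73 (adjusted p = 0.238). Txnrd1 read 444 at day 7 and 425 at day 5 in sutured WT, against 369 and 269 in intact WT, a log2 difference of 0.46 ± 0.18 (adjusted p = 0.256). The other 6 members had log2 differences between -0.30 for Gpx4 and 0.29 for Srxn1. Macrophage markers summed to between 3099 and 4114 in sutured WT and to between 460.7 and 474 in intact WT, and their part in these values was not tested.

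The response to suturing could be set against genotype only through 1 sutured Dscr1KO array, and Gpx2 was the member called in that interaction. It read 15.8 in the sutured Dscr1KO cornea, against 316 and 415 in the intact Dscr1KO corneas. In WT it read 18.4 at day 7 and 14.1 at day 5 after suturing, against 18.3 and 13.7 when intact. The difference of these differences was -4.26 ± 0.40 on the log2 scale (adjusted p = 0.00319, in a fit over 11 arrays added after earlier results were seen). Gpx2 was 1 of 10 members called, where 1.03% of all genes were called, and the single sutured Dscr1KO array was assumed to vary like the other groups. The sutured Dscr1KO array had a keratinised epithelium sum of 331 and a neutrophil sum of 1232, against 15456 to 24205 and 8860 to 19816 in intact Dscr1KO. S100a8 and S100a9 held most of the neutrophil sum. Csf3r, Cxcr2, Mmp8, Mmp9 and Fpr2 were also lower when sutured, with Cxcr2 at 17.8 against 44.6 and 21.0 in intact Dscr1KO. Xist was at 6.0 on the sutured Dscr1KO array and high on the intact Dscr1KO pair, so sex and suturing cannot be told apart there. The macrophage sum of the sutured Dscr1KO array, 7094, lay within the intact Dscr1KO range of 3417 to 9541, and its blood endothelium sum of 882 lay below that of the intact pair, 1036 to 1763. The part of these cell types in the result was not tested.

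For the other members the same interaction did not pass. Gpx3 read 126 in the sutured Dscr1KO cornea, against 1316.5 and 360.5 in the intact pair, with an interaction of -4.41 ± 1.16 (adjusted p = 0.121). Gpx4 read 1384 in the sutured Dscr1KO cornea, against 999 and 1045 in the intact pair, with an interaction of 0.73 ± 0.23 (adjusted p = 0.182). Gclm read 198 in the sutured Dscr1KO cornea, against 312 and 394 in the intact pair, with an interaction of -0.96 ± 0.28 (adjusted p = 0.159). For these 3 genes the sutured Dscr1KO value lay on the WT side of the intact Dscr1KO pair, and how many of all tested genes did so was not counted. Hmox1 had an interaction of -2.00 ± 0.58 (adjusted p = 0.155), and it and Gclm passed without Dscr1KO replicate 1 (adjusted p = 0.0119 and 0.0246).

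The remaining comparisons among sutured corneas set 1 array against 1 and have no test. In the sutured Dscr1KO cornea against the sutured WT cornea at day 5, Gpx3 read 126 against 41.5, a log2 difference of 1.52, and it was the member past 2-fold, where 6.09% of all genes were. Gclm read 198 against 159 there, a difference of 0.31, and Gpx2 read 15.8 against 14.1, a difference of 0.13. The other members lay between -0.16 and 0.18. In the cornea labelled Tg against the WT cornea at day 7, both sutured, Gpx3 read 16.6 against 28.2, a log2 difference of -0.65, and no member was past 2-fold, where 4.26% of all genes were. The pooled SD of Gpx3 between intact replicates was 1.05, larger than that difference. Gclc read 158 in the cornea labelled Tg against 194.5 in WT, a difference of -0.29, and the other 8 members lay between -0.28 and 0.21. In WT, day 7 against day 5 gave differences between -0.50 for Gpx3 and 0.31 for Gpx2.

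The wider antioxidant pathway was described through 9 lists of other genes, 108 in all, of which 92 were tested. In the average of Dscr1 loss, 34 of the 92 rose and 10 fell, with a median log2 difference of 0.21 beside -0.02 over all genes. The share called over all genes was 31.7%, and it is the share to set beside the count of each list below. The 4 glutathione peroxidases outside the set had 2 tested members, and Gpx7, a peroxidase of the endoplasmic reticulum, rose by 1.06 ± 0.17 (adjusted p = 0.0036). Gpx7 read 77.1 and 102.5 on the double KO arrays, 75.3 and 71.2 on the Dscr1KO arrays, 28.3 and 26.5 on the ApoeKO arrays, and 56.6 and 42.4 on the WT arrays. Its arrays without Dscr1 all lay above those with it.

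In glutathione synthesis and recycling, 3 of 8 tested genes rose and 1 fell, with a median of 0.34. Slc7a11, the cystine carrier that feeds glutathione synthesis, read 63.6 and 66.0 on the double KO arrays, 23.0 and 40.1 on the Dscr1KO arrays, 8.2 and 0.2 on the ApoeKO arrays, and 5.7 and 4.7 on the WT arrays. It followed the same order as Gclm, double KO above Dscr1KO above the others, with an average log2 difference of 2.65 ± 0.38 (adjusted p = 0.002). None of the 92 tested list genes was called by limma in the double KO against Dscr1KO, where 0.0236% of all genes were called. On the intact arrays with Dscr1, Slc7a11 lay below the filter level, an intensity of 9.5, so it passed the filter through its higher arrays. The count of 3 thus depends in part on the filter. The partner chain of Slc7a11, Slc3a2, rose by 0.61 ± 0.15, and Gsr, glutathione reductase, rose by 0.68 ± 0.13. Chac1, which degrades glutathione, fell by 1.03 ± 0.21 (adjusted p = 0.0088).

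Among the thioredoxins, peroxiredoxins and glutaredoxins, 3 of 16 tested genes rose and none fell, with a median of 0.05. The other 13 did not pass, where 31.7% of all genes were called. Glrx, cytosolic glutaredoxin, read 1213 and 1437.5 on the double KO arrays, 272 and 1833 on the Dscr1KO arrays, 104 and 98.7 on the ApoeKO arrays, and 133 and 148 on the WT arrays. Dscr1KO replicate 1 was again the lowest of the arrays without Dscr1, as for Gclc and Hmox1. Its average log2 difference was 2.98 ± 0.50, that of Prdx4, a peroxiredoxin of the secretory pathway, was 1.30 ± 0.16, and that of Msrb1, a methionine sulfoxide reductase with selenocysteine, was 0.88 ± 0.19. The superoxide dismutases and catalase had none of 5 called by limma, with a median of -0.24. The lowest p there belonged to Sod2, the mitochondrial superoxide dismutase, at -0.24 ± 0.10 (adjusted p = 0.117), and to Ccs, the copper chaperone of Sod1, at -0.24 ± 0.12 (adjusted p = 0.157).

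Of the 11 genes that control Nrf2, 2 rose and 1 fell, with a median of 0.22, where 31.7% of all genes were called. Nfe2l2 itself read 1123 and 1556 on the double KO arrays, 937 and 1005 on the Dscr1KO arrays, 719.9 and 792 on the ApoeKO arrays, and 642 and 668 on the WT arrays. All arrays without Dscr1 lay above those with it, with an average log2 difference of 0.69 ± 0.13 (adjusted p = 0.006). How many of all tested genes separate these arrays as fully was not counted. Keap1, the adaptor that marks Nrf2 for degradation, read 239 and 289.8 on the double KO arrays, 337 and 287 on the Dscr1KO arrays, 397 and 403 on the ApoeKO arrays, and 413 and 409 on the WT arrays. It fell by 0.50 ± 0.12 (adjusted p = 0.0153), and Bach1 rose by 0.52 ± 0.14 (adjusted p = 0.0232).

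Heme and iron genes rose in 5 of 8 tested with none lower and a median of 0.57. The largest of these differences were 6.18 ± 0.51 for Hp, haptoglobin, 3.53 ± 0.61 for Cp, ceruloplasmin, and 2.75 ± 0.20 for Slc40a1, the iron exporter ferroportin. Hp read 1.7 and 0.6 on the ApoeKO arrays and 1.1 on both WT arrays, below the added 3.6, so its size depends on that value. Those arrays also lay below the filter level, an intensity of 9.5, so Hp passed through its higher arrays. The count of 5 of 8 thus depends in part on the filter. Tfrc, the transferrin receptor, rose by 0.64 ± 0.19 (adjusted p = 0.0402), though its ApoeKO arrays, at 421 and 599, overlapped the double KO arrays at 539.5 and 524. Genes of the oxidases that make superoxide and hydrogen peroxide rose in 8 of 8 tested, of 14 listed, with a median of 2.25. Of the 11 with a probe set, Duoxa2, Mpo and Nos2 fell below the filter and were not tested. The filter used mean intensity over the arrays, so a gene dim in WT could pass through high values without Dscr1. Rac2, at 5.2 and 6.4 in WT, read 71.8 and 28.7 in Dscr1KO and 20.5 and 70.0 in the double KO. The count of 8 of 8 thus depends in part on the filter. Cybb, the catalytic subunit of the phagocyte oxidase, read 106 and 215.5 on the double KO arrays, 368 and 49.2 on the Dscr1KO arrays, 61.9 and 15.9 on the ApoeKO arrays, and 14.0 and 7.6 on the WT arrays, with a difference of 2.72 ± 0.65 (adjusted p = 0.0161). The cytosolic subunits Ncf1 and Ncf4 rose by 2.48 ± 0.37 and 2.47 ± 0.29, and the epithelial oxidase Duox1 by 2.47 ± 0.33. Phagocyte oxidase genes are expressed by neutrophils and macrophages, whose marker sums stand above.

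Glutathione transferases and other detoxifying enzymes split evenly, with 8 of 22 higher, 8 lower and a median of -0.14. The members with the largest called differences were Me1, malic enzyme, at 2.92 ± 0.19, Mgst1, a membrane glutathione transferase, at 2.32 ± 0.15, Akr1b8, an aldo-keto reductase, at 1.67 ± 0.47, and Aldh1a1, a retinal dehydrogenase, at -1.75 ± 0.49. Mgst1 read 2379 and 1781 on the double KO arrays, 1166 and 976 on the Dscr1KO arrays, 391 and 346 on the ApoeKO arrays, and 273 and 199.9 on the WT arrays. Its groups held the same order as Gclm in the corneas without Dscr1, though no list gene was called in the double KO against Dscr1KO. In selenoprotein synthesis, 4 of 12 rose and none fell, with a median of 0.14, where 31.7% of all genes were called. Dio2, a deiodinase of thyroid hormone that carries selenocysteine, differed by 4.76 ± 0.66, Sephs2, which makes the selenium donor, by 1.10 ± 0.16, Selenop, the selenium carrier of plasma, by 1.01 ± 0.17 and Secisbp2, which recodes the stop codon to selenocysteine, by 0.41 ± 0.12. Dio2 read 3733 on double KO replicate 1, the array with the high photoreceptor sum, and 359 on replicate 2, with 116 and 265 on the Dscr1KO arrays, 21.1 and 15.8 on the ApoeKO arrays, and 12.1 and 7.3 on the WT arrays. Without double KO replicate 1 its difference was 3.91, and without replicate 2 it was 5.60. Leaving out 1 array also moved Glrx to between 2.30 and 3.66 (Dscr1KO replicates 2 and 1), Cp to between 2.84 and 4.21 (ApoeKO replicates 2 and 1), Hp to between 5.59 and 6.78 and Cybb to between 2.01 and 3.42 (Dscr1KO replicates 1 and 2). Slc3a2, Keap1, Bach1, Tfrc, Aldh1a1, Akr1b8, Cybb and Secisbp2 each lost their call without at least 1 ApoeKO array and without at least 1 WT array, as did Cyba among the oxidase genes and, without ApoeKO replicate 2 or WT replicate 1, Nox4. Tfrc, Aldh1a1, Akr1b8, Cybb and Secisbp2 also lost it without at least 1 double KO array, and Tfrc without Dscr1KO replicate 2 (adjusted p = 0.0817). Over these genes the adjusted p of a lost call lay between 0.0527 and 0.153, and Chac1 lost its call without both ApoeKO replicate 1 and Dscr1KO replicate 2 (0.0525).

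**Figure D3:**
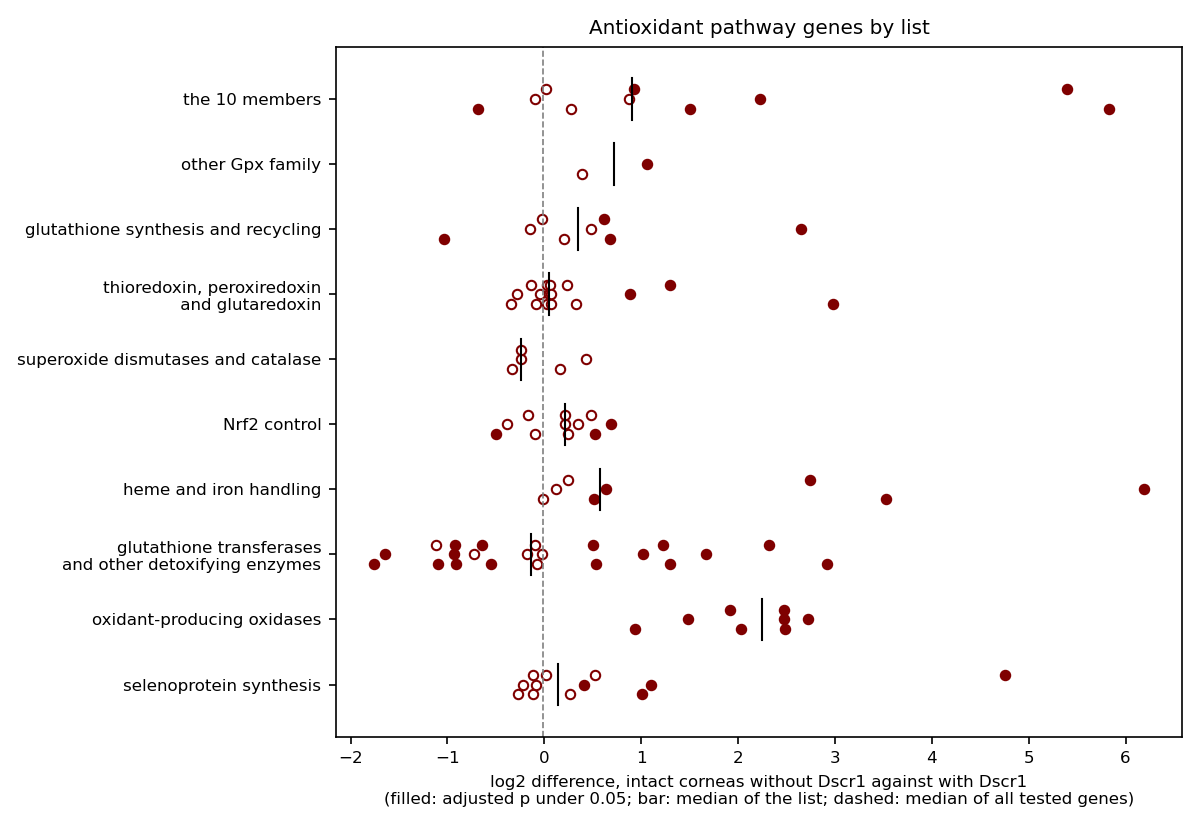
Log2 differences in intact corneas without Dscr1 against intact corneas with Dscr1 for the 10 antioxidant enzymes and for 9 lists of related genes; each point is a gene, filled points have an adjusted p under 0.05, short bars are list medians and the dashed line is the median of all tested genes. All 8 tested oxidase genes, of 11 with a probe set, lie to the right of 0, while the superoxide dismutases and catalase have no filled point.

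After suturing of WT corneas, 4 of the same 92 genes rose and none fell, with a median of 0.07 and with 1.57% of all genes called. Mgst1 read 678 at day 7 and 760.5 at day 5, against 273 and 199.9 in intact WT, a log2 difference of 1.61 ± 0.21 (adjusted p = 0.0115). Prdx4 rose by 1.20 ± 0.21 (adjusted p = 0.0266) and Xdh, xanthine oxidoreductase, by 1.22 ± 0.20 (adjusted p = 0.0214). Sod3, the extracellular superoxide dismutase, rose by 1.51 ± 0.29 (adjusted p = 0.0389), and its average difference for Dscr1 loss was 0.43 ± 0.21 (adjusted p = 0.160). Each of these 4 calls was lost without either intact WT array and without the day 5 array, with adjusted p between 0.0513 for Mgst1 and 0.353 for Sod3. Prdx4, Xdh and Sod3 were also lost without the day 7 array, Prdx4 and Sod3 without either ApoeKO array, and Sod3 without either double KO array. In the lists with no call, the lowest p belonged to Bach1 at 0.50 and Keap1 at -0.41 for Nrf2 control, to Tfrc at 1.39 and Hp at 2.78 for heme and iron, and to Gsr at 0.24 and Slc7a11 at 0.48 for glutathione synthesis. Their adjusted p were 0.232, 0.256, 0.0575, 0.0808, 0.589 and 0.724. Gpx8 at 0.92 (adjusted p = 0.077) and Gpx7 at 0.70 (0.413) stood for the other glutathione peroxidases, and Dio2 at 3.14 (0.125) and Eefsec at -0.43 (0.421) for selenoprotein synthesis.

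The tested genes most like each called member were found by Pearson correlation of log2 values over the 12 arrays, as a description of these arrays, which share genotype groups. For Gpx2 these were Rptn at 0.987, Lor at 0.985 and Defb4 at 0.984, and Rptn and Lor are genes of the cornified skin layer and stand in the keratinised epithelium list. For Gclm they were Ttpa at 0.992, Pla2g4d at 0.981 and Gpx2 at 0.978. For Gpx3 they were Deptor at 0.971, Nin at 0.968 and Fes at 0.962, and for Hmox1 Rab31 at 0.985, Hdc at 0.981 and Pmaip1 at 0.973. For Srxn1 they were Serpinb2 at 0.971, Rab24 at 0.970 and Tsr1 at 0.969, and for Gpx4 Fzd6 at 0.967, Usp46 at 0.955 and Utrn at 0.955.

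**Figure D4:**
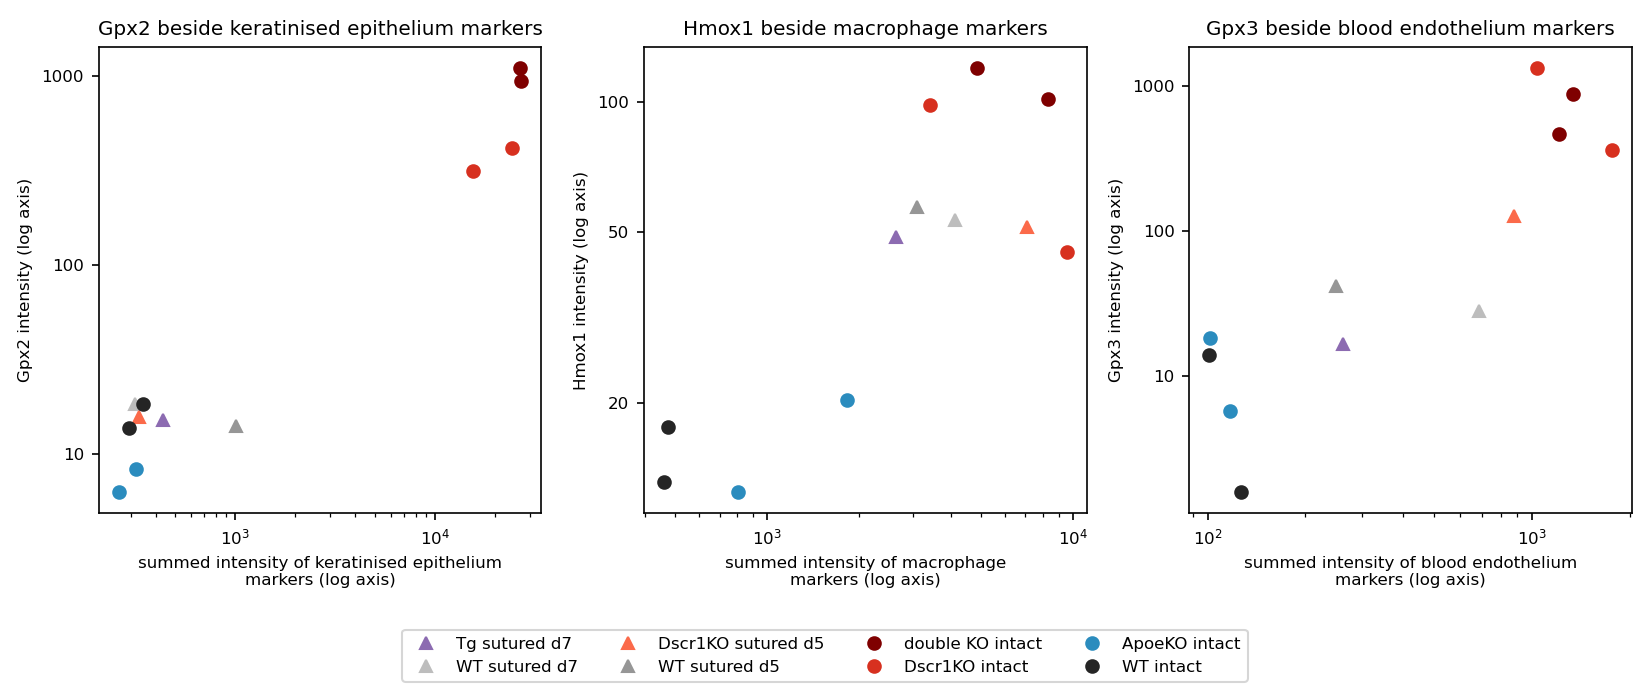
Intensity of Gpx2, Hmox1 and Gpx3 on each array against the summed intensity of keratinised epithelium, macrophage and blood endothelium markers, on logarithmic axes; circles are intact and triangles sutured corneas, 1 point per array. The 4 intact arrays without Dscr1 are high on both axes for Gpx2 and Gpx3, the sutured arrays have Hmox1 between 48.5 and 57.1 at macrophage sums between 2636 and 7094, and the sutured Dscr1KO array has a Gpx3 intensity of 126 at a blood endothelium sum of 882.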

How the data were processed

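Whole corneas of mice gave 12 Affymetrix arrays of 45101 probe sets. Per the labels' protocols, total RNA was purified with RNeasy and 100 ng went into biotinylated cRNA. The deposited values are linear probe-set intensities that the authors scaled on each array, which shows as a trimmed mean of 100 (2% cut from either end). Array medians were between 15.6 and 21.1, and the values are not quantile normalized. The sources used here do not name the software. The number of arrays limits the precision.

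Symbols came from the platform table: 34958 probe sets carry 1 symbol, 932 several and 9211 none. The brightest of a gene's single-symbol probe sets was used. From the deposited intensities log2(intensity + 3.6) was computed, 3.6 being the 20th percentile of all values. Genes whose mean log2 value reached the 40th percentile over probe sets were tested with limma 3.58.1 in R 4.3.3 (lmFit and eBayes with intensity trend), with Benjamini-Hochberg adjustment and a threshold of 0.05. The 8 intact arrays shared 1 spread, sutured WT was added for the suturing comparison, and the interaction of suturing and Dscr1 loss used 11 arrays. The scripts were tested on simulated data. Figures used matplotlib 3.10.9.

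The members and all gene lists were chosen with earlier results of these data known. All 10 members were named, with up to 4 called genes with the largest differences, or the 2 of lowest p, from each list. Alternatives were quantile normalization, other pseudocounts and filters, no intensity trend, only the groups compared, the replicate block, Xist as a covariate, leaving out arrays, and the other probe sets. Replicate numbers did not pair the samples, with correlations of deviations between -0.05 and 0.07. Protein sequences were not used here.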

Additional observations from a re-analysis of the deposited data

Results flagged for a closer look

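The interaction of suturing and Dscr1 loss was called for Gpx2, with a difference of differences of -4.26 on the log2 scale (adjusted p = 0.00319 with limma), in a fit added after earlier results were seen. It rests on 1 sutured Dscr1KO array, assumed to vary like the other groups, and in Dscr1KO the Xist level differed between the sutured array and the intact pair, so sex and suturing cannot be told apart there. Gpx2 read 15.8 in the sutured Dscr1KO cornea against 316 and 415 in intact Dscr1KO, and 18.4 and 14.1 in sutured WT against 18.3 and 13.7 in intact WT.

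In 3 further members every sutured array moved away from its intact group in opposite directions in Dscr1KO and WT. The share of all tested genes that did so was not counted. In the limma test of this interaction 2101 of all 12706 tested genes, and 5 members, had an unadjusted p under 0.05. For the 3 members the difference of differences was -4.41 for Gpx3, 0.73 for Gpx4 and -0.85 for Srxn1. None of these passed the test of the difference itself (adjusted p = 0.121, 0.182 and 0.314). Each rests on the same sutured Dscr1KO array.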

How the results depend on the processing

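No member's difference changed sign where it was called. Of the values of 24 called member results, 167 of 194 stayed past the threshold with 1 array left out and 208 of 227 did under the other settings. The average of Dscr1 loss kept 6 called members under all 9 other settings, Xist as a covariate included, and 6 to 7 with 1 array left out. Within the intact groups Xist differed widely only in the double KO pair, at 4256.9 and 19.6. The covariate thus rests mainly on that pair and cannot tell sex from genotype. In Dscr1KO against WT the count was 5, and 3 with only the groups compared, 3 without both arrays in doubt, and 2 to 7 with 1 array left out. The double KO gave 4 to 7 against WT and 3 to 7 against ApoeKO with 1 array left out. Sutured WT against intact WT had 0 called members, and 1 (Hmox1) with only the groups compared (adjusted p = 0.0252) and without both arrays in doubt (0.0273), and 0 to 1 with 1 array left out. The interaction of suturing and Dscr1 loss had 1, and 1 to 3 with 1 array left out. With the replicate block, which rests on shared numbers only, Dscr1KO against WT had 4 called members and Gpx4 was lost (adjusted p = 0.0565), while the other comparisons of intact groups held their counts. Gpx4 in Dscr1KO against WT was also lost with no filter (adjusted p = 0.0539), no intensity trend (0.0796) and only the groups compared (0.108), Hmox1 there with only the groups compared (0.0732), and Srxn1 in the double KO against ApoeKO under quantile normalization (0.0505). Over all genes, Dscr1KO against WT called 1495, with 265 to 3863 when 1 array was left out and 703 to 1476 under other settings. The average of Dscr1 loss called 4023, with 2168 to 5683 and 2596 to 4049. The double KO called 2555 against WT, with 700 to 3974 and 2020 to 2997, and 2493 against ApoeKO, with 520 to 3936 and 1947 to 2806. Sutured WT called 199, with 0 to 545 and 0 to 595, and the interaction of suturing and Dscr1 loss 131, with 25 to 1931 and 77 to 142. ApoeKO against WT called 3, with 0 to 16 and 0 to 203, the double KO against Dscr1KO 3, with 0 to 104 and 0 to 18, and the interaction of both losses 1, with 0 to 36 and 0 to 4. The cause of these changes was not tested. Fewer arrays leave fewer degrees of freedom when 1 is left out. Gpx2 and Gpx3 lie near the added value in intact corneas with Dscr1, which limits their folds.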
